A study of Homo sapiens with 6 samples.

Results

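The 9 genes described here are SRRM4 and its paralog SRRM3, the repressor gene REST, and 6 genes used to recognise neuroendocrine cells: ENO2, SYP, CHGA, NCAM1, INSM1 and POU3F2. They were chosen by symbol among the 20263 genes of the table, and all 9 were found. SRRM4 and ENO2 were put on the list because they were already known to be higher in the overexpression libraries, so their differences are given as a description, and their place among the called genes supports nothing, while the other 7 were added to ask whether further neuroendocrine genes differed. Total RNA was sequenced from cells given as LNCaP, an established line from a human prostate cancer that the labels describe as hormone-dependent. In all, 3 libraries came from cells with an empty vector and 3 from cells with a vector for LINC01518, an RNA that codes for no protein. The design text of the series gives MEG3 as the insert, the groups follow the sample labels, and neither RNA was analysed here. The labels give no time after transfection, no promoter of the vector and, beyond 3 replicates, no word on whether the libraries of a group were cultured separately. P-values therefore rest on library-to-library spread alone, which may be technical.

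Neuroendocrine prostate cancer is a form of the disease in which tumour cells lose androgen signalling and take on genes of neurons and hormone-secreting cells. REST is a zinc finger repressor that keeps many neuronal genes silent outside the nervous system by binding a DNA element called RE1 and recruiting corepressors. SRRM4 is a neural splicing activator that promotes the inclusion of short neuronal exons, among them an exon of REST that yields a truncated protein, and SRRM3 acts on many of the same exons. The counts used here are summed per gene, so the splice form of REST or of any other transcript was not measured.

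The start regions of the pair of genes that were higher are shown first, because they are the members that differed between the groups. RefSeq windows were available for 7 of the 9 genes (8 windows, REST having a pair), and the 250 bases before each start were searched on both strands. SRRM4 lies on chromosome 12 (118981495 to 119163051, plus strand, GRCh38, GENCODE 29). The bases of its window before the first annotated exon, chr12:118981291-118981494 of GRCh38.p14, are given with capitals marking GCGTG, a variant of the core letters of hypoxia response elements, here on the minus strand.
SRRM4: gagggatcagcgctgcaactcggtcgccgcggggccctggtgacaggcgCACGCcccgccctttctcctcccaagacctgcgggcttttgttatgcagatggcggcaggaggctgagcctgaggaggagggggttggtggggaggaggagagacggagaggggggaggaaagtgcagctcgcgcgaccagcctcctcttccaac
ENO2 lies on the same chromosome (6913745 to 6923698, plus strand), and most of its window is exon of 1 or another annotated transcript. Only 30 bases around the core letters ACGTG, marked in capitals, are shown, chr12:6914450-6914479. They were taken for these letters and not for lying outside exons.
ENO2: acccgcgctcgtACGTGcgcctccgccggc
These letters were found before other members too: ACGTG was in the window of POU3F2 and GCGTG in those of REST, POU3F2, CHGA and SYP. ACGTG was present in 18.51% and GCGTG in 32.22% of all 35116 windows. Both hold the step CG. The 8 windows of these genes had 66.4% to 79.2% G or C and 20 to 36 CG steps, against medians of 58.0% and 11 over all windows. The shares over all windows are therefore not those of windows alike in bases. TTCAGCACC, the left part of the RE1 element, was in 0.29% of all windows and GGACAGCGC, from its right part, in 0.43%, and neither was in the 8 windows of these genes. The shorter GGACAG was in 1 window of REST and in 17.17% of all windows. A match or its absence describes these letters in these 250 bases only.

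Libraries held 38161544 to 42553688 counts. Of 13543 genes that passed the filter on low counts, edgeR's quasi-likelihood test called 759, or 5.60%, at an adjusted p under 0.05 (Benjamini-Hochberg, over all genes tested), with 3.57% higher and 2.03% lower in overexpression. The 3 libraries of each group did not overlap for 15.9% of the genes tested in the higher direction and for 15.5% in the lower. The cell label was set against 15 markers of LNCaP or luminal prostate cells: KLK2, KLK3, KLK4, TMPRSS2, FOLH1 and TRPM8, which encode prostate proteases and surface proteins, had 0 counts in all 6 libraries. The keratin gene KRT8 was at 1588 TPM with empty vector (a level per transcript length). The identity of the cells as LNCaP is therefore in doubt on these 6 genes, and they are called by their label. Summed over 15 genes, most of it from KRT8 and the keratin gene KRT18 (1266 TPM), these markers lay at 2799 to 2991 TPM with empty vector and at 3168 to 3367 TPM with overexpression. The 8 neuron and glia markers summed to 30.8 to 40.8 TPM and 35.9 to 87.7 TPM, with NEFL and NEFM at 0 counts. Of these 8, TUBB3 was high in overexpression replicate 3 alone, and its log2 fold change of 0.80 was 0.02 without that library. The 7 fibroblast markers summed to 41.5 to 43.7 and 50.6 to 57.03 TPM, with LUM and PDGFRA at 0. The 6 immune markers summed to 37.04 to 40.02 and 23.99 to 28.04 TPM, with PTPRC, CD3E and MS4A1 at 0. The 4 endothelial markers summed to 5.32 to 5.93 TPM and 4.23 to 5.77 TPM, with KDR at 0. Of the marker genes KRT8 (0.29), COL1A1 and PDGFRB were called higher and CD68 (-0.65) lower. The part of these levels in the results below was not tested.

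Of the 9 genes, 6 passed the filter on low counts and 3 (CHGA, NCAM1 and INSM1) had at most 3 counts in every library. On the deposited TPM, which allow levels to be compared between genes, ENO2 was highest at a mean of 55.7 TPM over the 6 libraries and lay above 84.88% of the genes in the table. REST followed at 9.57 TPM. SYP, POU3F2, SRRM4 and SRRM3 lay close together at 0.847, 0.812, 0.652 and 0.495 TPM, and their ranges over the libraries overlapped. INSM1 and CHGA were at 0.0119 and 0.00229 TPM and NCAM1 was at 0. The plot of TPM by gene shows this order.

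**Figure D1:**
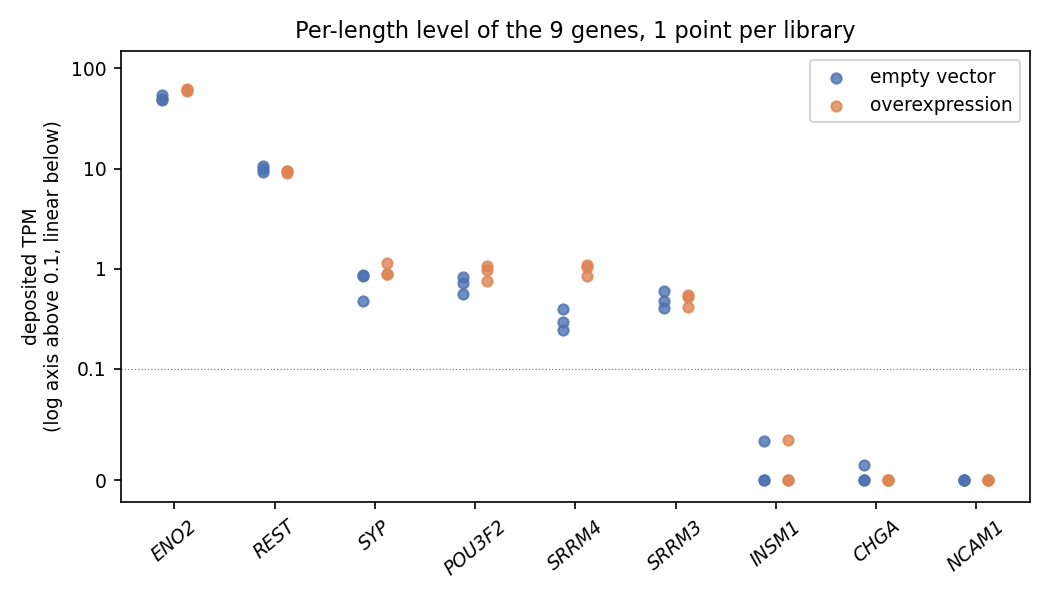
Deposited TPM of the 9 genes in each of 3 empty vector (blue) and 3 overexpression (orange) libraries, on an axis that is logarithmic above 0.1 TPM and linear below. ENO2 and REST stand above the rest, SRRM4 is the gene of low level whose groups are apart, and INSM1, CHGA and NCAM1 sit at or near 0.

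SRRM4, the neural splicing activator gene, was higher with overexpression. Its libraries held 69, 53 and 42 counts with empty vector and 158, 178 and 183 with overexpression. After TMM scaling these were 1.68, 1.24 and 1.08 CPM (counts scaled to library size) against 3.76, 4.52 and 4.84 CPM. Every overexpression library was above every empty vector library. In bulk libraries such as these, more cells with SRRM4 RNA and more of it per cell cannot be told apart. The means were 1.34 ± 0.311 and 4.38 ± 0.555 CPM (SD, n = 3 each), a log2 fold change of 1.71 (SE 0.200, 95% interval 1.25 to 2.17), or 3.26-fold. By size of log2 fold change SRRM4 ranked 20 from the top among the 13543 genes tested and 6 among the 484 genes called higher. The level stayed low on the scale per length, at 0.311 ± 0.0803 TPM with empty vector and 0.994 ± 0.128 TPM with overexpression (SD, n = 3 each). Low counts in this table were more often even than odd: 69.8% of the 9140 values from 1 to 10 were even, against 50.2% of the 3-digit values. Whether 1 count stands for 1 sequenced fragment is therefore not known here, and the SRRM4 counts may come from fewer fragments than their number. AC084361.1, an antisense gene on the opposite strand, overlaps SRRM4 exons and is not analysed here. Since the strand setting of the counting is not given in the sources used here, its reads cannot be told apart from those of SRRM4.

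SRRM3, the paralog, did not pass the test. It had 44, 32 and 34 counts with empty vector and 42, 40 and 30 with overexpression, so the groups overlapped. The means were 0.901 ± 0.163 and 0.937 ± 0.124 CPM (SD, n = 3 each), and the log2 fold change was 0.06 (95% interval -0.49 to 0.61, edgeR adjusted p = 0.909). SRRM1 and SRRM2, broadly expressed relatives that belong to the general splicing machinery, were far more abundant, at 151 and 299 TPM with empty vector. Their log2 fold changes were -0.04 and 0.07 (edgeR adjusted p = 0.699 and 0.617).

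Of the 29 splicing regulators listed, which include SRRM4 and SRRM3, 20 were tested, 1 was called higher (SRRM4) and 0 lower. This is 1 gene of 20 beside 5.60% of all genes tested, and it was known beforehand. The median log2 fold change of the 20 was 0.03, against -0.0035 for all genes tested. An unadjusted p under 0.05 was found for 4, beside 23.6% of all genes tested. The neural regulators NOVA1, RBFOX1, ELAVL2, ELAVL4 and KHDRBS2 had 0 counts in every library and ELAVL3 at most 2. PTBP1, which represses many neuronal exons in other cells, was at 165 ± 5.21 and 181 ± 5.04 CPM (SD, n = 3 each; log2 fold change 0.13, edgeR adjusted p = 0.131). RBFOX3, a splicing factor gene used as a marker of neurons, had 0.697 and 0.662 TPM. The splicing factor genes SRSF11, a partner of SRRM4, and RNPS1 were at -0.14 and -0.04 (edgeR adjusted p = 0.186 and 0.653).

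The genes listed as carrying exons regulated by SRRM4 were all tested, 16 of 16, and here only their total level was measured. DNM2, which encodes the membrane scission GTPase dynamin 2, rose from 139 ± 4.40 to 172 ± 3.62 CPM (SD, n = 3 each; log2 fold change 0.30, SE 0.045, edgeR adjusted p = 0.0128). The other 15 genes of the list were not called (4 of the 16 had an unadjusted p under 0.05, beside 23.6% of all genes tested, and 5.60% of all genes were called). Its adjusted p was 0.051 without overexpression replicate 1 and 0.0519 without overexpression replicate 2. UNC13B (0.29), MEF2D (0.18) and APBB1 (0.67) did not overlap between the groups and missed the threshold (edgeR adjusted p = 0.059, 0.0581 and 0.0936). With DNM2, 4 of the 16 genes did not overlap in the higher direction and 0 in the lower, beside 15.9% and 15.5% of all genes tested. Translation factor gene EIF4G1 was at -0.01, the phosphatase gene PTPRF at 0.01, KDM1A at 0.09 and TRIO at 0.04. The list's median was 0.06, against -0.0035 for all genes tested.

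**Figure D2:**
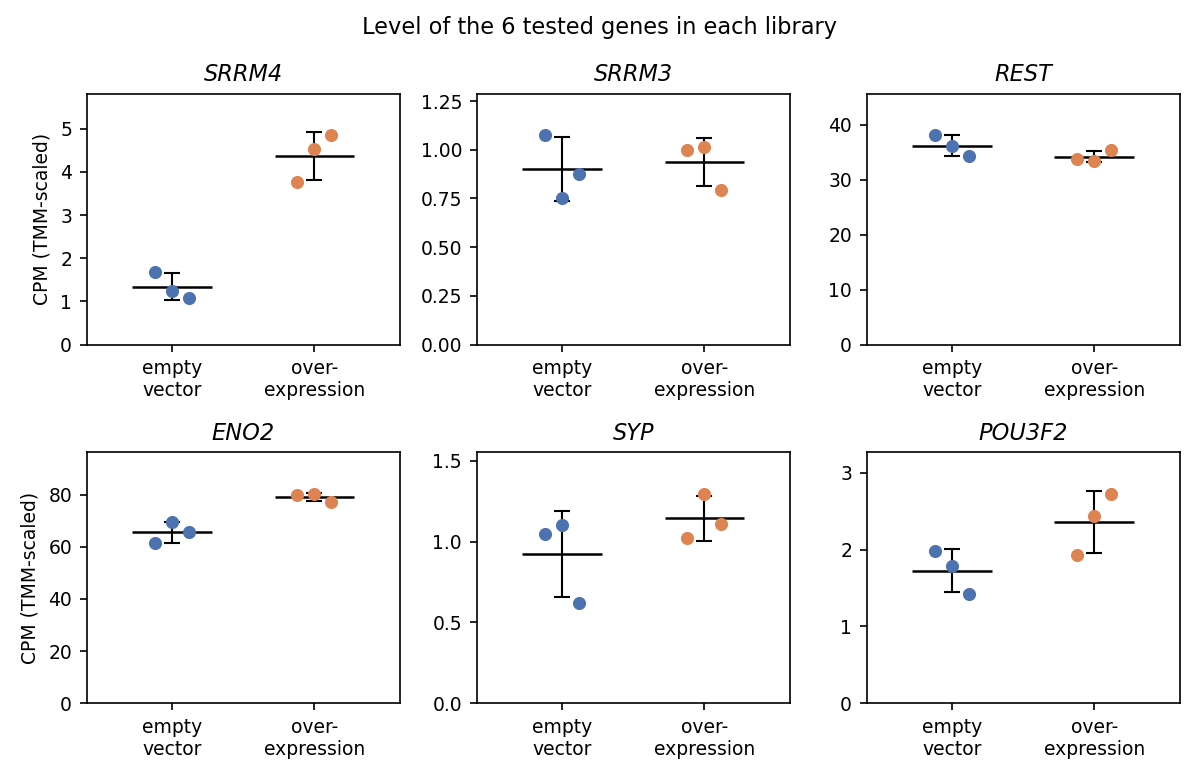
TMM-scaled CPM of the 6 genes that passed the filter on low counts, 1 point per library, with the mean (line) and SD (bar) of 3 libraries and each axis starting at 0. The groups are apart for SRRM4 and ENO2 and overlap for SRRM3, REST, SYP and POU3F2.

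REST, the repressor, was at 38.1, 36.2 and 34.4 CPM with empty vector and 33.8, 33.4 and 35.4 CPM with overexpression. The lowest empty vector library lay inside the overexpression range. The means were 36.2 ± 1.83 and 34.2 ± 1.04 CPM (SD, n = 3 each), with a log2 fold change of -0.08 (SE 0.065, 95% interval -0.23 to 0.07, edgeR adjusted p = 0.480). REST had 1314 to 1560 counts per library, and the lower end of the 95% interval was a fall of 0.23 on the log2 scale. That interval rests on the spread of 3 libraries per group and does not exclude a larger fall. REST lies on chromosome 4 (56907876 to 56966678), and its exons overlap those of NOA1, a gene of the other strand with 1426 to 1698 counts and a log2 fold change of 0.10 (edgeR adjusted p = 0.567). Reads of the overlap cannot be assigned to a strand here.

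Corepressors and turnover factors of REST, 22 genes with REST itself, were all tested. Of them 0 were called by edgeR over all genes tested, where 5.60% of all genes were, with 4 at an unadjusted p under 0.05 (23.6% of all genes). DESeq2 called 3 of them and 10.1% of all genes, and limma-voom and limma-trend on TPM each called 0. The median log2 fold change was 0.02. Of the 22 genes, 6 did not overlap between the groups in the higher direction and 2 in the lower, beside 15.9% and 15.5% of all genes tested. EHMT2, a histone H3 lysine methyltransferase gene, was closest to the threshold, at 0.24 (edgeR adjusted p = 0.0525), and was chosen after its value was seen. The histone deacetylase gene HDAC1 was at 0.08, HMG20B at 0.07 and the demethylase gene KDM5C at -0.02. CTDSP1 and CTDSPL, which encode small phosphatases that stabilise REST, had log2 fold changes of 0.59 and -0.69 (edgeR adjusted p = 0.183 and 0.130). CTDSP1 was at 31.2, 31.3 and 52.3 CPM with empty vector and at 57.9, 59.4 and 55.6 CPM with overexpression. Its groups did not overlap, and empty vector replicate 3 lay apart from the other libraries of its group. On the deposited TPM, CTDSPL was at 22.7 and 23.4, so its difference in counts was not seen there. BTRC, which encodes a ubiquitin ligase subunit that marks REST for degradation, was at -0.12 (edgeR adjusted p = 0.186). HDAC2 was at 94.5 ± 5.76 and 108 ± 16.1 CPM but at 57.6 ± 30.7 and 28.4 ± 9.86 TPM (SD, n = 3 each). Its means thus differed in direction between counts and deposited TPM, but the groups overlapped on both scales.

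Genes known as targets of REST were the most direct list for a loss of repression. Of 42 listed, 22 were tested, 1 was called higher and 1 lower, beside 5.60% of all genes tested, and 13 had at most 3 counts in every library. L1CAM, a neural cell adhesion gene, rose from 279 ± 18.1 to 364 ± 16.6 CPM (SD, n = 3 each; log2 fold change 0.38, SE 0.060, edgeR adjusted p = 0.0148). It was already at 128 TPM with empty vector, and its adjusted p was 0.0538 without overexpression replicate 1 and 0.0521 without overexpression replicate 2. STMN3, a microtubule regulator gene, fell from 13.2 ± 2.22 to 8.34 ± 0.885 CPM (log2 fold change -0.67, edgeR adjusted p = 0.0377). It kept its call in 1 of the 6 fits without 1 library, that without empty vector replicate 1, and had an adjusted p of 0.0617 to 0.120 in the others. The 22 tested genes had a median log2 fold change of 0.12, against -0.0035 for all genes tested, with 12 above 0 and 10 below, and 2 had an unadjusted p under 0.05, beside 23.6% of all genes. TUBB3, the neuronal tubulin gene, had 745, 1059 and 889 counts with empty vector and 934, 883 and 2652 with overexpression. Its high value came from overexpression replicate 3 alone, and its log2 fold change of 0.80 (edgeR adjusted p = 0.453) was 0.02 without that library. The cadherin gene CELSR3 was at -0.07, the neurotrophin gene BDNF at -0.05 and the filament gene INA at 0.08. The synaptic and secretory genes CHGB, SCG3, STMN2, SYT4 and SCN2A had 0 counts in all libraries.

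**Figure D3:**
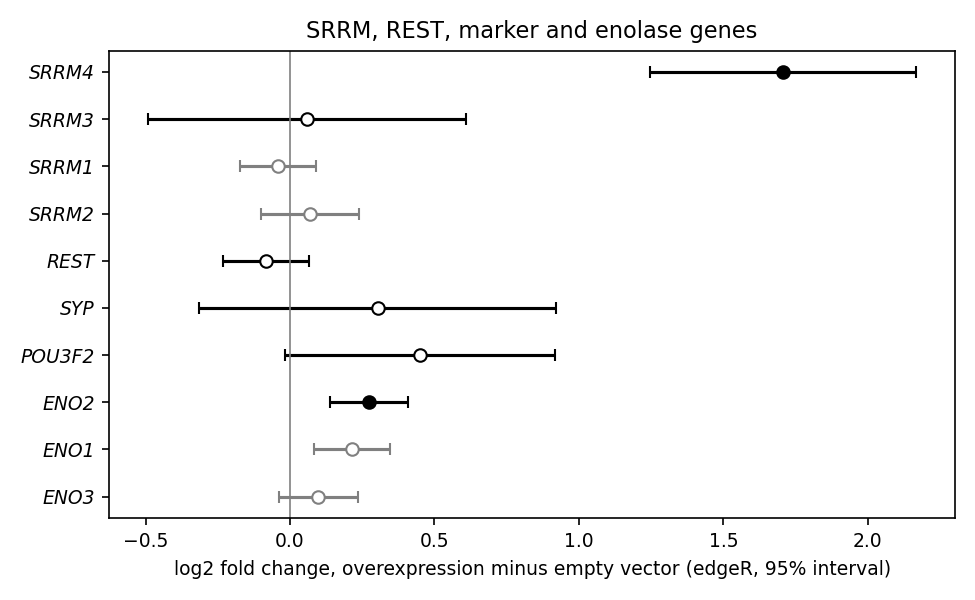
Log2 fold change with 95% interval (edgeR, overexpression minus empty vector, 3 libraries each) of the 6 tested members (black) and of SRRM1, SRRM2, ENO1 and ENO3 (grey), filled where called. SRRM4 stands at 1.71 and ENO2 at 0.27, and the intervals of SRRM3, REST, SYP and POU3F2 include 0.

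The marker genes began with ENO2, which encodes the gamma enolase of neurons, a glycolytic enzyme. Its libraries were at 61.4, 69.4 and 65.7 CPM with empty vector and 79.9, 80.3 and 77.3 CPM with overexpression. The groups did not overlap. The means were 65.5 ± 4.03 and 79.2 ± 1.61 CPM (SD, n = 3 each), a log2 fold change of 0.27 (SE 0.059, 95% interval 0.14 to 0.41), or 1.21-fold. As a limit of this description, ENO2 was among the 759 genes called but past the threshold in none of the 6 fits without 1 library, where its log2 fold change was 0.23 to 0.32, nor with library size as the only scaling (0.24) or in any fit on TPM (0.28). LRRC23 lies within part of the ENO2 span on the same strand with no shared exon, and had 619 to 1137 counts.

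SYP, which encodes the synaptic vesicle protein synaptophysin, had 43, 47 and 24 counts with empty vector and 43, 51 and 42 with overexpression. Empty vector replicate 3 was the low library, and the groups overlapped. The log2 fold change was 0.30 (95% interval -0.32 to 0.92, edgeR adjusted p = 0.540), and it lay at 0.09 without empty vector replicate 3. The antisense gene SYP-AS1 overlaps SYP exons. POU3F2, which encodes the neural transcription factor BRN2, had 81, 76 and 55 counts with empty vector and 81, 96 and 103 with overexpression. Overexpression replicate 1 lay inside the empty vector range. Its log2 fold change was 0.45 (SE 0.202, 95% interval -0.02 to 0.92, edgeR adjusted p = 0.224). Both intervals are wide, and neither sets a narrow limit on a change.

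The remaining 3 markers were at the limit of detection. NCAM1, the gene of the neural adhesion molecule CD56, had 0 counts in all 6 libraries. CHGA, which encodes the secretory granule protein chromogranin A, had 1 count in empty vector replicate 1 and 0 elsewhere. INSM1, a zinc finger factor gene of neuroendocrine cells, had 2 counts in the third library of each group and 0 in the other 4. A count of 0 allows up to 3 counts, or 0.0703 to 0.0794 CPM depending on the library, for counting error only. If a fragment could give more than 1 count, which the many even low values leave unsettled, the limit would be higher. None of these 3 genes had more than 2 counts in any overexpression library. CHGA and NCAM1 had 0 counts in each of them, so no rise past this limit was seen for these genes. The limit holds for a count of 0 and does not cover overexpression replicate 3 for INSM1, with its 2 counts. A fall, or a change below the limit, was not detectable at this depth.

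In a wider list of 20 neuroendocrine markers, 10 had at most 3 counts in every library, among them CHGB, SCG3, DDC, GRP, CALCA and SCGN. Of the 8 tested, 2 were called higher, ENO2 and L1CAM, and 0 lower, beside 3.57% and 2.03% of all genes tested, with 4 log2 fold changes above 0 and 4 below and a median of 0.02. ENO2 was chosen for its rise, so the count rests on L1CAM alone beside it. The synaptic gene SNAP25 was at 0.22, the prohormone convertase gene PCSK1 at -0.18 and the Notch ligand gene DLL3 at -0.25 (edgeR adjusted p = 0.510, 0.419 and 0.464). UCHL1, a neuronal ubiquitin hydrolase gene, had 10 to 19 counts per library and a log2 fold change of -0.57 (edgeR adjusted p = 0.297).

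Among 19 factors linked to neuroendocrine prostate cancer, 12 were tested, 1 was called higher and 0 lower by edgeR, beside 5.60% of all genes tested. An unadjusted p under 0.05 was found for 3 of them, beside 23.6% of all genes, and the median log2 fold change was 0.05. NKX2-1, a homeobox factor gene best known from lung and thyroid, rose from 3.76 ± 0.388 to 6.28 ± 0.433 CPM (SD, n = 3 each; log2 fold change 0.74, SE 0.124, edgeR adjusted p = 0.0187). It had 142 to 159 counts with empty vector and 220 to 266 with overexpression, with no overlap. Its adjusted p was 0.0592 without empty vector replicate 2 and 0.0647, 0.0652 and 0.0515 without overexpression replicate 1, 2 or 3. FOXA2, SOX2, NEUROD1 and PROX1 had 0 counts in all libraries and MYCN at most 2. NOTCH1 was at 0.00057, RB1 at 0.06, ONECUT2 at -0.17 and AURKA at 0.24 (edgeR adjusted p = 0.997, 0.610, 0.194 and 0.112).

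ENO2 was also read beside its own enzyme family and pathway. ENO1, the enolase of most tissues, was at 3580 TPM with empty vector and 4026 TPM with overexpression, and ENO3, the muscle form, at 354 and 366 TPM. Of the summed enolase TPM, ENO2 made up 1.265%, 1.335% and 1.195% in the empty vector libraries and 1.347%, 1.386% and 1.381% in the overexpression libraries. The log2 fold change of ENO1 was 0.21 (95% interval 0.08 to 0.35, edgeR adjusted p = 0.0707) and that of ENO3 0.10 (edgeR adjusted p = 0.359), and the intervals of ENO1 and ENO2 overlapped. Of 17 genes of the enolases and glycolysis, all tested, 7 were called higher and 0 lower, where 3.57% of all genes tested were called higher. Besides ENO2 these were PKM (0.41), PFKL (0.38), TPI1 (0.29), PGK1 (0.29), ALDOC (0.28) and GPI (0.26), which encode glycolytic enzymes. The median of the 17 was 0.21, against -0.0035 for all genes tested, and 17 of 17 were above 0 (16 with library size as the only scaling). PKM and PFKL kept their calls in all 6 fits without 1 library, while ALDOC lost its call in 6, GPI in 5 and TPI1 and PGK1 in 4 each. The list had 2 to 4 calls in these fits, where 193 to 458 of all genes were called against 759. The list was chosen with earlier results of these data known, so its calls are not separate support for ENO2. GAPDH (0.10), ALDOA (0.25) and LDHA (0.18) were not called.

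**Figure D4:**
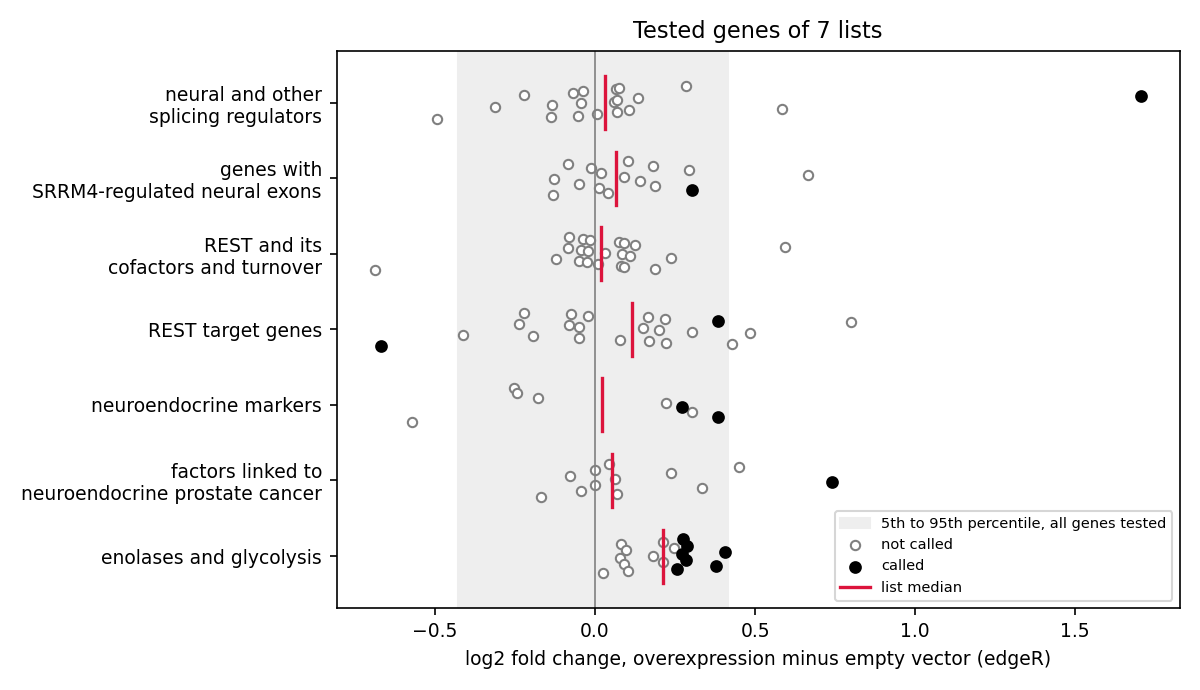
Log2 fold change of the tested genes of 7 lists (edgeR, overexpression minus empty vector), filled where called, with each list's median in red and the 5th to 95th percentile of all genes tested shaded. The medians of the splicing, REST and neuroendocrine lists lie between 0.02 and 0.12 and that of the enolases and glycolysis at 0.21, and the filled point at 1.71 is SRRM4.

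Genes whose level followed a member most closely were sought by Pearson's r of log2 CPM over the 6 libraries, among 11597 genes with a mean of at least 100 counts. The points share their libraries, so r is a description only. For SRRM4 and ENO2 it mostly reflects the difference between the groups, while the groups of REST overlapped. For SRRM4 the closest were EGLN1, which encodes an oxygen-sensing prolyl hydroxylase, ZNF282, PITPNM1, FNDC10 and TBC1D1, with r from 0.999 to 0.995, of which FNDC10 was not called. For ENO2 they were ILRUN, the glycolytic gene PGK1, NR1H2, ROR2 and SLC25A42, with r from 0.996 to 0.993, and NR1H2 was not called. For REST they were E2F7, WDR41, ARL2BP, SECISBP2L and MAP3K2, with r from 0.993 to 0.984, and none of these 5 was called.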

How the data were processed

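Counts and TPM of 20263 genes in 6 libraries were used, and 0 columns were left unmatched. The submitters' processing notes name Trimmomatic 0.36, HISAT2, featureCounts, Subread 1.5.1, DESeq and the build GRCh38, and give no settings used by the authors. The deposited counts are whole numbers with no normalization. The deposited TPM are scaled per length and per library, and the tool that made them is not given either.

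Symbols came from a gene name table, positions from GENCODE 29 and windows before gene starts from RefSeq (GRCh38.p14). In R 4.3.3, edgeR 4.0.16 fitted a robust quasi-likelihood model with group as its only term to genes kept by filterByExpr (minimum count 10, minimum total 15) after TMM scaling. The standard error is the log2 fold change divided by the square root of F. Alternatives used DESeq2 1.42.0, limma 3.58.1, other scalings and filters, a replicate block and fits without 1 library. In simulated counts for this comparison over 13543 genes, edgeR recovered 58%, 86%, 92% and 92% of 50 genes each changed 1.5-, 2-, 3- and 4-fold, and called 19 of 13343 unchanged genes. These 19 false calls are to be set beside the genes recovered as well. Changed genes were drawn from all genes tested. The rates therefore do not describe genes of low count such as SRRM3, SYP and POU3F2, or a fold as small as the 1.21 of ENO2.

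The members and gene lists were chosen with earlier results of these data known. The text names the members, called list genes, up to 4 uncalled genes of each list with the highest counts, SRRM1, SRRM2, ENO1, ENO3 and the 5 genes most like SRRM4, ENO2 and REST. Other list genes are named to show levels, spread or closeness to the threshold and were chosen after their values were seen.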

Additional observations from a re-analysis of the deposited data

How the results depend on the processing

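The log2 fold change of SRRM4, a description of a gene chosen for its rise, was 1.58 to 1.90 without 1 library and 0.88 to 1.71 in the 10 other fits, the lowest on log2(TPM + 0.5), a scale that understates low genes. REST, SYP and POU3F2 were called in none of their fits (SYP was not tested with 50 counts in 3 libraries) and kept their sign, with REST at -0.12 to -0.05 without 1 library. SRRM3 was called in none either and lay at -0.059 to 0.20 without 1 library. ENO2 lay at 0.23 to 0.32 without 1 library and lost its call there each time. It also lost its call with library size only (0.24), on log2(TPM + 0.5) with and without a filter (0.28), on log2(TPM + 0.1) (0.28) and with the replicate block (0.27), so that 1 member was called in each of these fits and in each fit without 1 library.

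All genes called were 193 to 458 without 1 library, 1319 with DESeq2, 227 on log2(TPM + 0.5), 151 without its filter and 222 on log2(TPM + 0.1), against 759. With library size only, 346 were higher and 382 lower, against 484 and 275. The same-numbered libraries correlated at 0.044, 0.039 and 0.137 after removal of group means, and differently numbered libraries at -0.085 to 0.045. Not every library correlated best with its own number. With group means taken from 3 libraries each, these values cannot decide whether the numbers pair the libraries. With the replicate block 232 genes were called, 219 of them among the 759, and the block left 1 REST target, 1 neuroendocrine marker, 0 of the linked factors and 2 glycolysis genes.

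In the fits without 1 library, 193 to 458 of 13665 to 13695 genes tested were called, against 759 of 13543. There 0 to 1 of 22 REST cofactors, 0 to 2 of 22 to 23 REST targets and 0 to 1 of 8 to 9 neuroendocrine markers were called. For linked factors it was 0 to 1 of 12, for genes with SRRM4-regulated exons 0 to 1 of 16 and for glycolysis 2 to 4 of 17. Calls over the whole table fell in the same fits, so these counts are no result about the lists. With library size only 1 neuroendocrine marker and 4 glycolysis genes were called, beside 728 of all 13543 genes. Without a count filter 1 REST cofactor was called, beside 787 of 16239 genes. DESeq2 called 3 REST cofactors and 3 genes with SRRM4-regulated exons, beside 10.1% of all genes. The limma-voom fit called 1 REST target, beside 623 of 13543 genes. On TPM, the 3 fits called 227 of 12927, 222 of 12927 and 151 of 16238 genes. They called 0 genes with SRRM4-regulated exons, 0 REST targets, 0 neuroendocrine markers and 3, 3 and 1 glycolysis genes. On log2(TPM + 0.5) without a filter 0 linked factors were called.

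Among genes that were not called, the sign differed for PTPRF (-0.019 with library size only, -0.11 on TPM), TRIO (-0.27 on TPM) and NOTCH1 (-0.032 with library size only, -0.00023 without a count filter, -0.0019 with 50 counts in 3 libraries, -0.042 on log2(TPM + 0.5) with and without a filter and -0.043 on log2(TPM + 0.1)). Without 1 library the ranges were -0.017 to 0.049 for PTPRF, -0.023 to 0.085 for TRIO, -0.042 to 0.052 for NOTCH1, -0.034 to 0.0088 for EIF4G1, -0.0081 to 0.12 for SRRM2, -0.067 to 0.0053 for SRRM1, -0.11 to 0.023 for BDNF and -0.0697 to 0.0071 for KDM5C. The cause of these changes was not tested, except that fits without 1 library hold fewer samples.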
